A study of Homo sapiens with 4 samples.

Results

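The 10 genes EGFR, ERBB3, MET, AXL, EPHA2, FGFR1, FGFR2, FGFR4, PDGFRA and PDGFRB, which encode receptor tyrosine kinases for growth factors and ephrins, were examined in the RNA-seq libraries of HeyC2 and SKOV3, 2 established ovarian cancer cell lines. They were taken by symbol, and all 10 were found among the 26506 genes of the tables. Each line had been transfected by lipofection with pCMV6/TET1, from which the viral CMV promoter drives full-length TET1, or with the empty plasmid (control), and both were kept in Geneticin. TET1 is a dioxygenase that starts DNA demethylation, and the question for these receptors was how their mRNA stood in TET1-reprogrammed cells. The labels call the control cells wild-type, and whether the transfected cells were 1 clone or a pool is not given in the sources used here. Each condition had 1 library, so that no difference within a line has a replicate check, and no test between conditions was run.

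Receptor tyrosine kinases span the plasma membrane. Binding of a ligand brings receptors together, the kinase domains phosphorylate tyrosines on the receptor tails, and adaptor proteins bound there pass the signal to RAS and ERK and to PI3K and AKT. EGFR and ERBB3 belong to the epidermal growth factor receptor family, in which ERBB3 has little kinase activity of its own and signals mainly with a partner such as ERBB2. MET is the receptor of hepatocyte growth factor, AXL that of the vitamin K-dependent protein GAS6, and EPHA2 binds A-type ephrins on neighbouring cells. FGFR1, FGFR2 and FGFR4 bind fibroblast growth factors, and PDGFRA and PDGFRB are platelet-derived growth factor receptors typical of mesenchymal cells. EGFR, AXL, MET and EPHA2 have all been studied in ovarian cancer as drivers of growth and invasion.

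Levels are given as FPKM, fragments per kilobase of transcript scaled to the mapped fragments of the library, which allows genes to be compared per length. In the deposited tables GAPDH was identical in TET1 and control, and every TET1 value had been multiplied by 1 constant, 3.23 in HeyC2 and 1.35 in SKOV3. This constant was divided out before any value below was computed. The relative log2 change is log2((TET1 + 1)/(control + 1)) minus the median of the same value over all genes with a mean of at least 1 FPKM. That median was 0.06 in HeyC2 and 0.19 in SKOV3. A gene was counted as higher or lower when its relative change passed 1.5-fold. The depth estimated from the smallest FPKM steps lay between 6530000 and 7310000 fragments, so 1 fragment on EGFR was worth 0.0140 to 0.0157 FPKM and 1 fragment on FGFR4 0.0465 to 0.0520 FPKM. Ratios given below come from estimated fragments without the added 1, relative to the same median. At low levels they can lie further from 1 than the fold of the relative change. Intervals given with them are exact 95% intervals from those fragments. They cover counting error only, not the spread between cultures. TET1 itself stood at 0.20 and 0.52 FPKM in HeyC2 control and TET1 and at 0.43 and 1.80 FPKM in SKOV3. Its relative change was 0.78 in SKOV3. In HeyC2 it was 0.28, short of 1.5-fold and at a mean under 1 FPKM, so TET1 was not counted as higher there. Of the markers of epithelial and ovarian cells, KRT8 and KRT18 were at 192.85 FPKM or more and PAX8 at 74.59 FPKM or more in all 4 libraries, EPCAM was under 1 FPKM in both HeyC2 libraries, and MUC16 and WT1 did not reach 1 FPKM in any library.

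The genes lie apart in the genome (GRCh37, the build of hg19). EGFR is at chr7:55086710-55279321 and MET at chr7:116312250-116438431, both on the plus strand. AXL is at chr19:41725128-41767671 on the plus strand and EPHA2 at chr1:16450832-16482564 on the minus strand. ERBB3 is at chr12:56470583-56497289, FGFR4 at chr5:176513906-176525145 and PDGFRA at chr4:55095447-55164412, on the plus strand. FGFR2 at chr10:123237846-123357972 and PDGFRB at chr5:149493402-149535435 are on the minus strand.

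The promoters of 4 of these genes are shown because 3 of them (EPHA2, EGFR and AXL) were lower together in SKOV3 TET1 and the other (FGFR2) was higher, and because TET1 acts on CG dinucleotides. Each is the 300 bases from 250 before to 50 after the start, from the RefSeq promoter table, taken at the start of the canonical transcript and placed by an exact match to GRCh37. They are written 5′ to 3′ on the strand of the gene, and capitals mark CG dinucleotides.
EPHA2, chr1:16482515-16482814, minus strand: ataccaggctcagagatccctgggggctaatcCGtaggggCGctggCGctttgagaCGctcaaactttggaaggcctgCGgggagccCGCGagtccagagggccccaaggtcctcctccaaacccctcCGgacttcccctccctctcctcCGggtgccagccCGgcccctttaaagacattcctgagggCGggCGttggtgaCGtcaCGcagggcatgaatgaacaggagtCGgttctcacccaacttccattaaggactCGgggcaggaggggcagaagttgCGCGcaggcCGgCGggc
EGFR, chr7:55086460-55086759, plus strand: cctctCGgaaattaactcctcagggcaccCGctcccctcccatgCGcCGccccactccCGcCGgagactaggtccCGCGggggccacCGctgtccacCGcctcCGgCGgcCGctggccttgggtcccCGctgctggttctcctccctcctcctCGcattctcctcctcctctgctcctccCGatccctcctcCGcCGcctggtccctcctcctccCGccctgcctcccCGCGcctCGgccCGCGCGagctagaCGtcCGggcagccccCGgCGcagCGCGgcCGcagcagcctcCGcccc
AXL, chr19:41724878-41725177, plus strand: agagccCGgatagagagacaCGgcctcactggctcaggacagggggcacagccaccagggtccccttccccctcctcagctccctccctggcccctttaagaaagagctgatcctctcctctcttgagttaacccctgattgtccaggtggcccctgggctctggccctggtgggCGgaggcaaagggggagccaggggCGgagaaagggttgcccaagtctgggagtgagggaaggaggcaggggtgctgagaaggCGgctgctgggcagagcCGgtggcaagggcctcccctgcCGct
FGFR2, chr10:123357909-123358208, minus strand: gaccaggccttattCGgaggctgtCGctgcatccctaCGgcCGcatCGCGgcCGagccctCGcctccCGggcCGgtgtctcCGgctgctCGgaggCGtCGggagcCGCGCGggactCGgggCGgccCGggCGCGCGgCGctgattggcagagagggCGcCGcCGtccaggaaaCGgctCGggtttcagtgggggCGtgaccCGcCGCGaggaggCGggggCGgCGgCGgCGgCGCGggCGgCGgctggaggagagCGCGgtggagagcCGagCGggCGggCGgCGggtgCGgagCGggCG
The 3 promoters of genes that were lower differed widely in CG content. EGFR had 33 CG, EPHA2 20 and AXL 7, while FGFR2 had 52. The median of the 35116 promoters of the table was 14, with quartiles of 4 and 28. The GC box GGGCGG, searched on both strands, occurred 3 times in EGFR, 2 times in AXL, 1 time in EPHA2 and 5 times in FGFR2. It was found at least once in 45.0% of all promoters of the table. The motif TGANTCA, with N as any base, takes in the AP-1 site but is wider than it. It was not in any of these 4 windows, and 7.71% of all promoters held it. A promoter with a single match in GRCh37 was found for 8 of the 10 genes. ERBB3 and FGFR1 had no entry in the promoter table, so FGFR1, which was also lower in SKOV3 TET1, is not shown. Among the other genes with one, MET had 30 CG, FGFR4 30, PDGFRB 11 and PDGFRA 8. DNA methylation was not analysed here.

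In the control libraries, both lines shared the same leading receptors. EPHA2 was the highest of the 10 in both, followed by AXL and EGFR. EPHA2 stood at 265.31 FPKM in HeyC2 control and 183.74 FPKM in SKOV3 control, above 99.1% and 98.5% of all genes. AXL was at 96.15 and 109.30 FPKM, and EGFR at 86.81 and 45.81 FPKM. MET, at 23.35 and 25.81 FPKM, and FGFR1, at 14.55 and 40.72 FPKM, came next in both lines, with MET above FGFR1 in HeyC2 and below it in SKOV3. Of the 5 remaining genes, 4 were found mainly or solely in 1 of the lines. FGFR4 was at 10.63 FPKM and FGFR2 at 2.32 FPKM in SKOV3 control, and both were listed at 0 in HeyC2 control. ERBB3 was at 0.07 FPKM in HeyC2 control, about 3 fragments, and at 1.14 FPKM in SKOV3 control, about 44 fragments. PDGFRB was the only one of the 10 detected in HeyC2 control and listed at 0 in SKOV3 control, with 1.54 FPKM or about 62 fragments in HeyC2. PDGFRA was listed at 0 in HeyC2 control and at 0.07 FPKM, about 3 fragments, in SKOV3 control, which counting error does not tell apart.

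**Figure D1:**
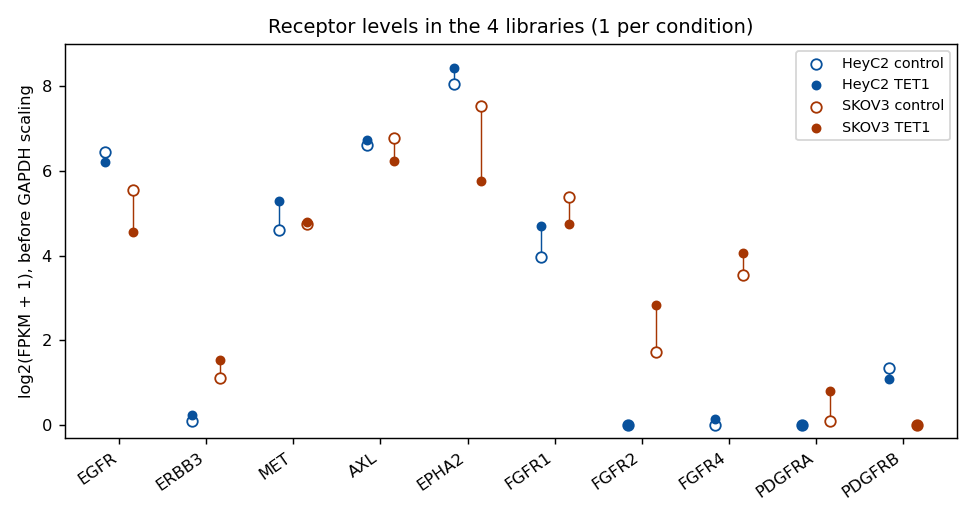
Level of each receptor as log2(FPKM + 1) before the GAPDH scaling, with 1 library per point, open circles for control and filled circles for TET1, HeyC2 in blue and SKOV3 in brown. EPHA2, AXL and EGFR stand at the top in both control libraries, and the SKOV3 TET1 point of EPHA2 (53.44 FPKM) lies well under its control (183.74 FPKM).

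Relative to all genes, 7 of the 10 receptors passed the filter in the comparison of the controls. EGFR and EPHA2 were higher in HeyC2 control than in SKOV3 control, and FGFR1, FGFR2 and FGFR4 were lower, against 29.0% of 12488 genes higher and 28.6% lower. The relative difference was 1.17 for EGFR, with a relative ratio of 2.28 (2.18 to 2.38), and 0.80 for EPHA2, with a ratio of 1.74 (1.68 to 1.80). FGFR1 differed by -1.16 with a ratio of 0.430 (0.391 to 0.473). MET, at 0.13, and AXL, at 0.08, did not pass 1.5-fold. Under TPM without a median subtracted EPHA2 was at 0.50, short of 1.5-fold, and MET and AXL turned negative (-0.17 and -0.21). FGFR2 and FGFR4 are listed at 0 in HeyC2 control, so no fold is given for them.

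In SKOV3, TET1 cells had less mRNA of the leading receptors than the control. Of the 8 receptors that passed the filter, EPHA2, EGFR, FGFR1 and AXL were lower and FGFR2 was higher, while ERBB3, FGFR4 and MET did not pass 1.5-fold. Over all 13016 genes, 18.2% were lower and 20.7% higher. The median relative change of the 8 receptors was -0.44, beside 0 for all genes by construction. The lower share of receptors thus stood above the background and the higher share under it, in a list too short for more than a description. The split depended on scaling: TPM without a median subtracted gave 3 higher and 3 lower, upper-quartile scaling gave 1 higher and 3 lower, with an all-gene median of 0.25 and 0.18, and the FPKM as deposited, with no median subtracted, gave 3 higher and 2 lower.

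EPHA2 had the largest change of the list. It fell from 183.74 FPKM in SKOV3 control to 53.44 FPKM in TET1 (71.91 FPKM as deposited). The relative log2 change was -1.96, or 3.88-fold lower, and only 0.922% of all genes were lower still. The relative ratio from about 4875 and 1325 fragments was 0.255 (0.239 to 0.271). EGFR fell from 45.81 to 22.44 FPKM (30.20 FPKM as deposited), a relative change of -1.19 with a ratio of 0.429 (0.402 to 0.456), and 4.17% of genes were lower. FGFR1, the fibroblast growth factor receptor with the highest level in these cells, fell from 40.72 to 25.94 FPKM, a relative change of -0.82 with a ratio of 0.558 (0.514 to 0.605). AXL fell from 109.30 to 74.91 FPKM, a relative change of -0.73 with a ratio of 0.60 (0.569 to 0.633). The SD of the relative change over the 500 genes nearest in expression was 0.79 for EPHA2, 0.77 for EGFR, 0.78 for FGFR1 and 0.74 for AXL, so EPHA2 and EGFR lay well outside 1 SD, FGFR1 just outside and AXL just inside. AXL was at -0.56 under upper-quartile scaling and -0.49 under TPM, which is short of 1.5-fold.

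FGFR2 was the receptor that was higher in SKOV3 TET1. It rose from 2.32 to 6.15 FPKM (8.28 FPKM as deposited), or from about 73 to 180 fragments. The relative change was 0.91, or 1.885-fold with 1 added to each FPKM. The ratio from fragments, without the added 1, was 2.31 (1.75 to 3.08). FGFR4 was at 10.63 and 15.71 FPKM, a relative change of 0.33 with a ratio of 1.29 (1.08 to 1.54). ERBB3 was at 1.14 and 1.91 FPKM, with a relative change of 0.25 and a ratio of 1.45 (0.977 to 2.17). MET was at 25.81 and 26.58 FPKM, with a relative change of -0.15, and its sign turned under TPM (0.09) and under upper-quartile scaling (0.02). PDGFRA did not pass the filter. It was at 0.07 FPKM in the control, about 3 fragments, and at 0.75 FPKM in TET1, about 31 fragments, a relative ratio of 9.68 with a counting interval of 3.02 to 49.5. PDGFRB was listed at 0 in both SKOV3 libraries.

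In HeyC2 the same receptors did not move down together. MET and FGFR1 were higher in TET1, no receptor was lower, and EGFR, AXL, EPHA2 and PDGFRB did not pass 1.5-fold among the 6 receptors that passed the filter. Over all 11896 genes, 12.5% were higher and 9.19% lower, and the median of the 6 receptors was 0.20. FGFR1, at chr8:38257733-38326352 on the minus strand, rose from 14.55 to 24.94 FPKM (80.67 FPKM as deposited), a relative change of 0.68 with a ratio of 1.65 (1.48 to 1.83). MET rose from 23.35 to 38.05 FPKM (123.07 FPKM as deposited), a relative change of 0.62 with a ratio of 1.56 (1.45 to 1.69). Both exceeded the 1.5-fold limit by little, at percentiles 90.4 and 88.8 of all genes, and the SD of the 500 genes nearest in expression was 0.54 for FGFR1 and 0.49 for MET. Without the division by the GAPDH constant and with no median subtracted, all 6 receptors counted as higher, and with the median subtracted from the deposited values 2 were higher and 1, PDGFRB, was lower.

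EPHA2 was at 265.31 FPKM in HeyC2 control and 346.57 FPKM in TET1, a relative change of 0.33 with a ratio of 1.25 (1.22 to 1.29). EGFR was at 86.81 and 72.82 FPKM, with a relative change of -0.31 and a ratio of 0.806 (0.776 to 0.837). AXL was at 96.15 and 105.85 FPKM, with a relative change of 0.08. PDGFRB was at 1.54 and 1.12 FPKM, about 62 and 41 fragments, and its ratio of 0.706 (0.464 to 1.06) could not be told from 1 by counting error. ERBB3 (0.07 and 0.17 FPKM) and FGFR4 (listed at 0, and 0.11 FPKM or about 2 fragments) did not pass the filter. FGFR2 and PDGFRA were listed at 0 in both HeyC2 libraries. EGFR-AS1, which overlaps EGFR on the opposite strand, was at 1.12 FPKM or under in all 4 libraries, and LETM2, which overlaps FGFR1, at 4.13 FPKM or under. No strand setting is given in the sources used here, so how the reads of such pairs were split is not known.

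**Figure D2:**
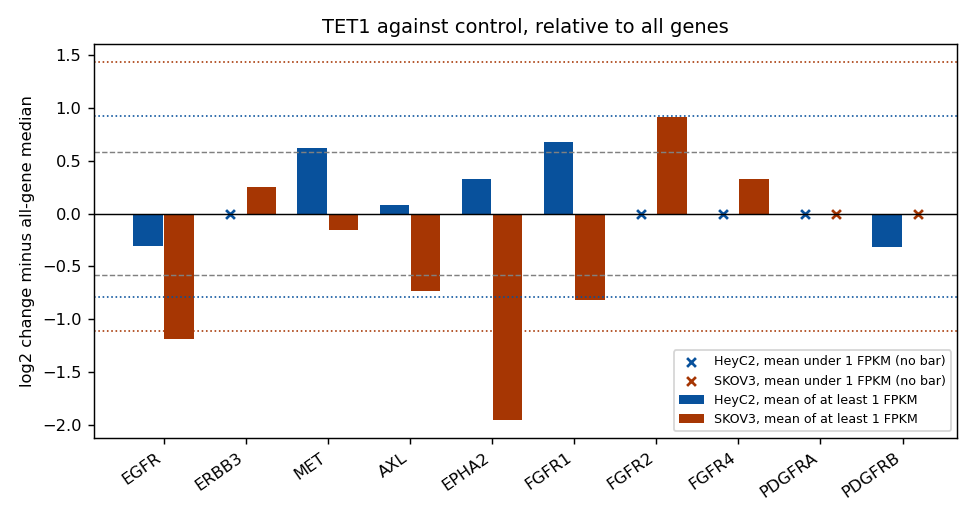
Bars of the relative log2 change of each receptor in TET1 against control, HeyC2 in blue and SKOV3 in brown, with 1 library per condition and crosses for receptors under a mean of 1 FPKM. Grey dashed lines mark 1.5-fold and dotted lines the 5th and 95th percentile of all genes in each line, and EPHA2 (-1.96) and EGFR (-1.19) in SKOV3 lie below the lower dotted line of that line (-1.11).

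The lines thus differed most for EPHA2 and FGFR1. The relative change in HeyC2 minus that in SKOV3 was 2.28 for EPHA2 and 1.5 for FGFR1. For the 11136 genes with enough signal in each line, this difference had an SD of 0.84 and a 95th percentile of 1.29, and EPHA2 and FGFR1 were at percentiles 99.1 and 96.8. The differences were 0.88 for EGFR, 0.81 for AXL and 0.77 for MET, all under that 95th percentile. None of these differences between lines was tested. The receptors that passed the filter in both lines were EGFR, MET, AXL, FGFR1 and EPHA2. Of these, only FGFR1 passed 1.5-fold in both lines in opposite directions, as did 3.15% of the 11136 genes. In the same direction 0 passed it, as did 6.10% of genes, and so few receptors allow no more than a description.

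The falls in SKOV3 changed the makeup of the receptor mRNA. The 10 receptors summed to 419.54 FPKM in SKOV3 control and 227.83 FPKM in TET1, and to 487.78 and 589.63 FPKM in HeyC2. The share of EPHA2 in that sum went from 43.8% to 23.5% in SKOV3 and from 54.4% to 58.8% in HeyC2. AXL took over as the highest of the 10 in SKOV3 TET1, with 32.9% of the sum, and EGFR went from rank 3 to rank 5, behind MET and FGFR1. The levels of MET, FGFR1 and EGFR in SKOV3 TET1 were close, at 26.58, 25.94 and 22.44 FPKM. FGFR4, FGFR2 and ERBB3 made up 6.90%, 2.70% and 0.838% of the sum there. The order of the leading 7 receptors was the same in both HeyC2 libraries.

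**Figure D3:**
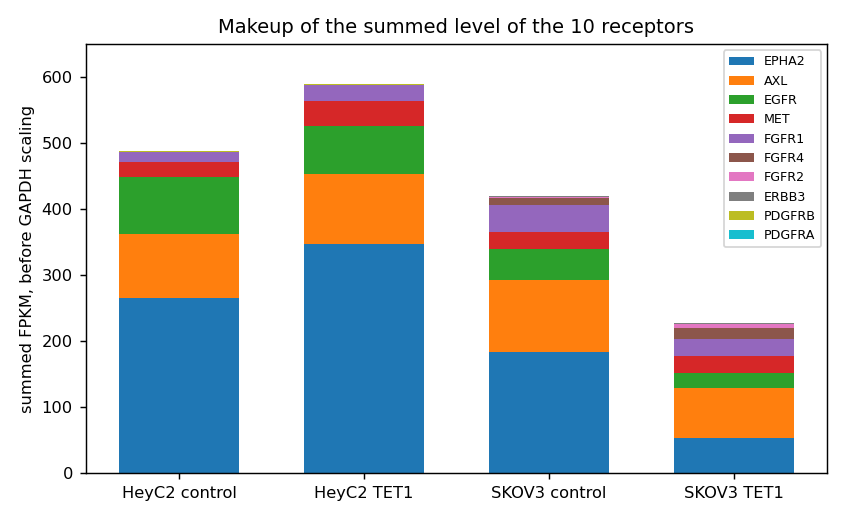
Summed FPKM of the 10 receptors in each of the 4 libraries before the GAPDH scaling, stacked by receptor from 0. The SKOV3 TET1 bar (227.83 FPKM) is the lowest, and most of its distance to the SKOV3 control bar (419.54 FPKM) is the EPHA2 segment.

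Among all 58 receptor tyrosine kinases examined, EPHA2 ranked 1 in both HeyC2 libraries. In SKOV3 it ranked 2 in the control and 5 in TET1. ERBB2, the partner of ERBB3 and EGFR, ranked 1 in both SKOV3 libraries, at 1281.74 and 1463.94 FPKM, and was at 20.09 and 23.82 FPKM in HeyC2. Its relative change was 0.00 in SKOV3 and 0.18 in HeyC2. Of the 48 kinases outside the list, 21 passed the filter in SKOV3, of which 5 were higher and 1 lower with a median of 0.40. In HeyC2 15 passed, of which 4 were higher and 3 lower with a median of 0.18. Over all genes, 20.7% were higher and 18.2% lower in SKOV3, and 12.5% and 9.19% in HeyC2. The single lower gene in SKOV3 was TYRO3, a receptor of the AXL family, at -1.20. EPHB2, an ephrin-B receptor, was higher in both lines, with relative changes of 0.86 in HeyC2 and 1.68 in SKOV3. RYK, a Wnt receptor, was the highest in HeyC2 at 1.07, and RET, the receptor of the GDNF family, rose in SKOV3 by 0.81 from a level of 1.04 FPKM. ROR1, a Wnt5a receptor, was at 1.0 in HeyC2 and -0.50 in SKOV3. The lowest in HeyC2 were EPHA4 (-0.84) and the collagen receptor DDR2 (-0.82). ERBB4 and FGFR3 were listed at 0 in HeyC2 control and at 1.02 and 9.72 FPKM in SKOV3 control, where ERBB4 was higher in TET1 (0.72) and FGFR3 was at 0.19.

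Ligands of these receptors changed in both directions. Of 39 ligand genes, 19 passed the filter in SKOV3, of which 7 were lower and 5 higher with a median of -0.06. In HeyC2 17 passed, of which 3 were lower and 4 higher with a median of 0.21. The shares over all genes were 18.2% lower and 20.7% higher in SKOV3 and 9.19% lower and 12.5% higher in HeyC2, so the higher ligands in SKOV3 stood near the background. Of the EGFR ligands, TGFA was at 12.72 FPKM in SKOV3 control and 6.82 FPKM in TET1 (relative change -1.0), AREG at 5.48 and 2.17 FPKM (-1.22), and EREG at 2.66 FPKM and listed at 0. HBEGF went from 3.80 to 7.14 FPKM, a relative change of 0.57 that did not pass 1.5-fold, and BTC was at -0.38. In HeyC2 TGFA was higher, at 26.52 and 42.09 FPKM (0.59), and HBEGF lower, at 17.79 and 11.85 FPKM (-0.61), each just past the limit. AREG was at 1.58 and 1.73 FPKM in HeyC2.

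Of the other ligands in SKOV3, NRG1, the neuregulin that binds ERBB3, fell from 34.96 to 13.86 FPKM (-1.47), and FGF2 fell from 40.50 to 16.06 FPKM (-1.47). FGF18 was also lower (-0.61). EFNA5, an ephrin bound by EPHA2, was lower at -0.99, while EFNA3 (1.44) and EFNA2 (1.34) were higher. EFNA1 (0.23) and EFNA4 (0.41) did not pass 1.5-fold. PDGFB rose from 2.23 to 16.70 FPKM (2.26) and PDGFA from 2.36 to 8.41 FPKM (1.29), in cells where the PDGF receptors were under 1 FPKM. In HeyC2, PDGFB went the other way, from 33.87 to 12.47 FPKM (-1.43), NRG2 fell from 10.38 to 2.63 FPKM (-1.71), and FGF1 rose from 3.20 to 6.93 FPKM (0.86). FGF2 (0.52), FGF18 (0.51), NRG1 (0.27), PDGFC (0.52) and FGF5 (-0.31) did not pass the limit there.

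PROS1 and EFNA3 were the ligands higher in both lines. PROS1 encodes protein S, a ligand of the receptor family of AXL and TYRO3 that was listed here under AXL. It rose from 2.98 to 13.30 FPKM in HeyC2 (1.79) and from 11.35 to 27.48 FPKM in SKOV3 (1.01). EFNA3 rose from 1.93 to 4.85 FPKM in HeyC2 (0.94) and from 2.54 to 9.97 FPKM in SKOV3 (1.44). GAS6, the main ligand of AXL, was the most abundant of the listed ligands in both lines, closely followed by FGF2 (40.50 FPKM) in SKOV3 control. It did not pass 1.5-fold, at 223.66 and 210.84 FPKM in HeyC2 (-0.14) and 41.06 and 44.94 FPKM in SKOV3 (-0.06). HGF, the ligand of MET, was listed at 0 in all 4 libraries.

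**Figure D4:**
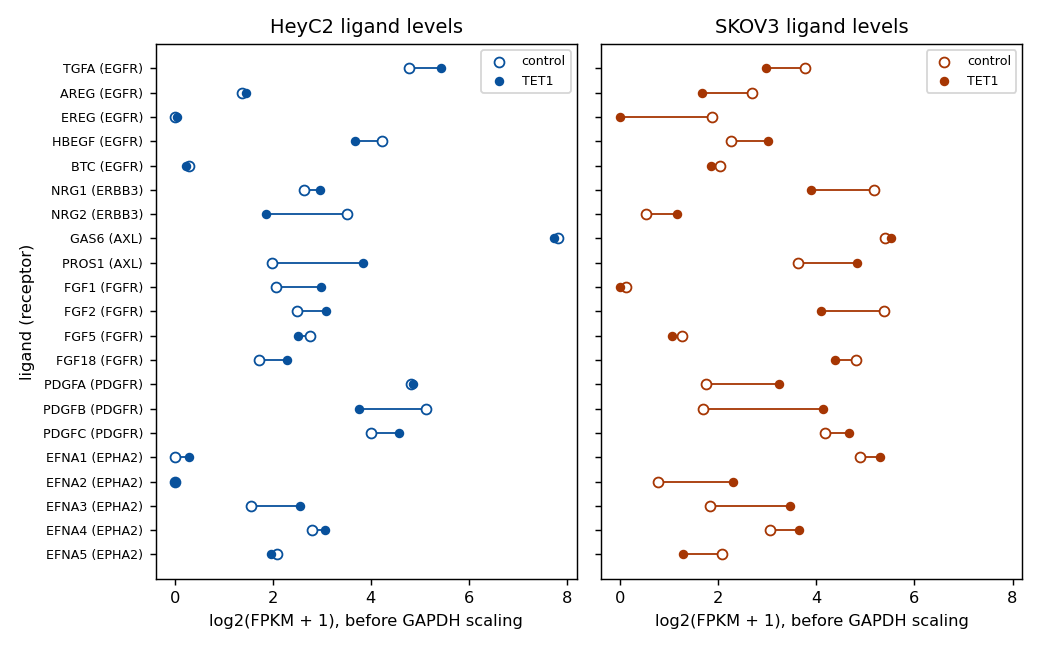
Level of each ligand with at least 1 FPKM in any library as log2(FPKM + 1) before the GAPDH scaling, HeyC2 on the left and SKOV3 on the right, open circles for control and filled circles for TET1, with the receptor it was listed under in brackets. TGFA, AREG, EREG, NRG1 and FGF2 shift to the left in SKOV3, and PROS1 and EFNA3 shift to the right in both lines.

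Downstream of the receptors stand the relay proteins. The list had 32 genes, mainly for adaptors, RAS, RAF, MEK, ERK, PI3K and AKT proteins, with PLCG1, SRC, STAT3 and PTPN11 also in it. All 32 passed the filter in both lines. In SKOV3 3 were higher and 3 lower with a median of 0.01, and in HeyC2 3 were higher and 2 lower with a median of -0.01, beside 20.7% higher and 18.2% lower over all genes in SKOV3 and 12.5% and 9.19% in HeyC2. PIK3CD, a catalytic subunit of PI3K, was among the higher in SKOV3 (1.01), and AKT1 (-0.85) and HRAS (-0.65) were the lowest. In HeyC2, PLCG1 (1.47) and SRC (0.72) were the highest and PIK3R1, a regulatory subunit of PI3K, was the lowest (-0.86).

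Feedback inhibitors, which switch the receptors or ERK off, went in both directions. Of 24, 22 passed the filter in each line, with 4 higher and 4 lower in SKOV3 (median -0.05) and 3 and 3 in HeyC2 (median -0.16). These counts were near the shares over all genes, 20.7% higher and 18.2% lower in SKOV3 and 12.5% and 9.19% in HeyC2. The ERK phosphatase gene DUSP5 was lower in both lines, from 102.62 to 16.42 FPKM in SKOV3 (-2.76) and from 153.45 to 65.24 FPKM in HeyC2 (-1.28). DUSP4, of the same family, fell from 15.24 to 4.78 FPKM in SKOV3 (-1.68) and rose from 20.80 to 57.16 FPKM in HeyC2 (1.36). LRIG1, which promotes the breakdown of EGFR family receptors, was higher in SKOV3 (0.90) and lower in HeyC2 (-1.13). CBLB, a ubiquitin ligase for receptors, was higher in SKOV3 (1.39) and at -0.15 in HeyC2. SPRED3 was at 0.89 in SKOV3 and -0.64 in HeyC2, and SPRY1 at 0.25 and 0.97.

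Among genes known to be induced by ERK, more were lower than higher in each line. Of 12, 11 passed in SKOV3, of which 5 were lower and 2 higher with a median of -0.58, and all 12 passed in HeyC2, of which 6 were lower and 3 higher with a median of -0.57. Over all genes, 18.2% were lower and 20.7% higher in SKOV3, and 9.19% and 12.5% in HeyC2. FOSL1, a subunit of AP-1, fell from 131.97 to 10.38 FPKM in SKOV3 (-3.74) and was at 259.34 and 370.70 FPKM in HeyC2 (0.46). CCND1, the cyclin of early G1, fell from 145.43 to 26.23 FPKM in SKOV3 (-2.62) and was just past the limit in HeyC2, from 329.38 to 228.03 FPKM (-0.59). EMP1 and MAFF were lower in both lines, at -2.29 and -0.90 in SKOV3 and -1.43 and -1.33 in HeyC2. The transcription factor genes ETV4 and ETV5 were higher in SKOV3 (0.75 and 0.60), and in HeyC2 ETV4 was lower (-0.81) and ETV5 at -0.55. FOS and EGR1, which respond within minutes to serum or handling, rose strongly in HeyC2, from 12.37 to 138.04 FPKM (3.32) and from 2.46 to 19.02 FPKM (2.47). In SKOV3, where both were already high in the control, FOS was at 252.65 and 220.44 FPKM and EGR1 at 466.85 and 786.52 FPKM. The list has members that respond to other signals too, and phosphorylation of receptors or ERK was not measured.

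**Figure D5:**
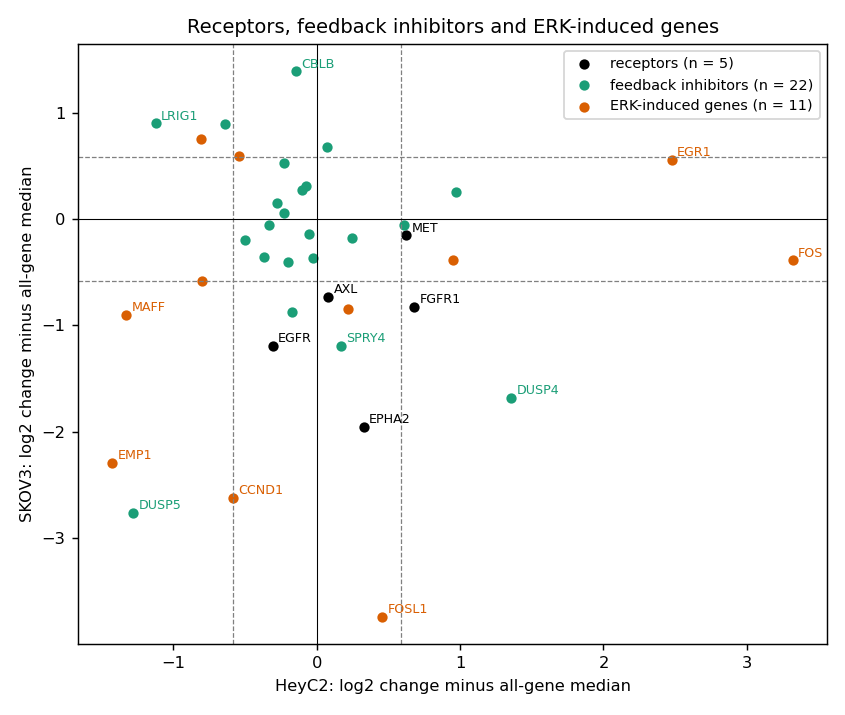
Relative log2 change in HeyC2 on the x axis and in SKOV3 on the y axis for the receptors (black), feedback inhibitors (green) and ERK-induced genes (orange) that passed the filter in both lines, with dashed lines at 1.5-fold. EPHA2, EGFR, SPRY4, DUSP5, DUSP4, CCND1, EMP1 and FOSL1 lie below -1 on the SKOV3 axis, and FOS and EGR1 lie far to the right on the HeyC2 axis.

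Epithelial markers went in both directions in SKOV3. KRT7 and KRT19, simple epithelial keratins, were at 1537.20 and 255.14 FPKM in SKOV3 control and at 21.96 and 0.46 FPKM in SKOV3 TET1. KRT8 (559.93 and 774.61 FPKM), KRT18 (192.85 and 255.46 FPKM) and EPCAM (15.39 and 16.10 FPKM) did not pass 1.5-fold in SKOV3, and CDH1 rose from 2.24 to 6.30 FPKM. In all, 3 of the 7 epithelial markers were lower and 1 higher there. Their summed level was 2580.67 FPKM in the control and 1080.29 FPKM in TET1, a fall that lay almost wholly in KRT7 and KRT19. Of 4 fibroblast markers, COL1A1 (0.32 and 27.66 FPKM), LUM (0.51 and 4.32 FPKM) and COL1A2 (0.13 and 2.12 FPKM) were higher in SKOV3 TET1, while DCN was at 0.08 FPKM and listed at 0, and the summed level was 1.04 and 34.10 FPKM. The immune markers PTPRC, CD3E and CD14 were under 1 FPKM in all 4 libraries. In HeyC2 KRT7 was higher, from 289.68 to 1124.57 FPKM (1.90), and so was KRT19, from 0.62 to 1.59 FPKM (0.62). KRT8 (475.73 and 386.27 FPKM, -0.36) and KRT18 (377.55 and 378.83 FPKM, -0.05) did not pass 1.5-fold in HeyC2. The epithelial sum in HeyC2 was 1144.90 and 1892.97 FPKM, and its rise lay in KRT7. Of the mesenchymal markers there, VIM (7496.18 and 2926.91 FPKM) and FN1 (5556.55 and 2618.93 FPKM) were lower and CDH2 (26.87 and 43.24 FPKM) was higher, and in SKOV3 only VIM, at 1223.43 and 834.83 FPKM, was past the limit. Of the ovarian markers, SOX17 was lower in both lines, at 7.01 and 2.64 FPKM in HeyC2 and 79.38 and 42.21 FPKM in SKOV3, and PAX8 was higher in SKOV3 (0.61). In HeyC2 the endothelial gene CDH5 was at 18.85 and 94.63 FPKM, with PECAM1 and VWF under 1 FPKM. The part of these marker changes in the receptor results was not tested, and in bulk libraries fewer cells of a type and less RNA per cell cannot be told apart.

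The receptor with the widest range over the 4 libraries was FGFR4, present in SKOV3 and near 0 in HeyC2. By the Euclidean distance of centred log2(FPKM + 1) over 4 libraries, among 13088 genes, the nearest patterns were those of CHST15 (0.09), PICK1 (0.14) and CERS1 (0.18). CHST15 was at 0 and 0.04 FPKM in HeyC2 and at 10.73 and 14.93 FPKM in SKOV3. With 4 libraries such a pattern mainly describes the difference between the lines.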

How the data were processed

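RNA-seq was performed with 1 library in each of 4 conditions. Per the labels, total RNA was made into TruSeq libraries, sequenced in pairs, aligned to hg19 with Bowtie2 2.2.6 and quantified with RSEM 1.2.17. The authors deposited FPKM of 26506 genes in a separate table for each line. The annotation is not given in the sources used here. The TET1 columns had been multiplied by a constant that sets GAPDH to its control value. It was sought as the largest constant for which the distinct TET1 values below 40 FPKM were that constant times a multiple of 0.01 FPKM (tolerance 0.006). This held for 100% of those values. The constant was divided out before a pseudocount of 1 was added.

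Genes with a mean of at least 1 FPKM over the libraries compared were used, and changes were taken relative to their median. With 1 library per condition no test was run and no p-value was computed, and a gene was counted past 1.5-fold. For depth, the library size was sought that turns small FPKM of genes with 1 annotated transcript (GENCODE on GRCh37, length minus 150 bases) into whole fragments. Fragments of the receptors use the canonical transcript, so they are approximate. Genes every cell uses were above 0 in all libraries. On simulated data, 200 of 200 genes with a planted 3-fold change were recovered in HeyC2 and 199 of 200 in SKOV3. The planted genes had at least 5 FPKM in the control and the simulation held counting error only. It thus checks the calculation, and not changes near 1.5-fold, low levels or the spread between cultures.

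The receptors and lists were chosen with earlier results of these data known. Named genes were the 10 receptors, ERBB2, ERBB4 and FGFR3, and from each list those past 1.5-fold in the same direction in both lines, the 2 highest and 2 lowest in each line, and ligands of at least 1 FPKM in any library. Some genes that this rule names are not reported here. The cell type markers shown were picked from their lists after the values were seen. The pattern nearest to a receptor was sought for the receptor with the widest range. Alternatives were pseudocounts of 0.1 and 0.01, no filter, a mean of at least 5 FPKM, scaling to TPM or to the upper quartile, limits of 2-fold and 1.2-fold, and the values as deposited. Calculations used Python 3.11.15, numpy 2.4.6, pandas 2.3.3, scipy 1.17.1 and matplotlib 3.10.9.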

Additional observations from a re-analysis of the deposited data

Results flagged for a closer look

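FGFR1 passed 1.5-fold upwards in one line and downwards in the other, at relative log2 changes of 0.68 in HeyC2 and -0.82 in SKOV3. The same held for TGFA (0.59 and -1.0), PDGFB (-1.43 and 2.26), LRIG1 (-1.13 and 0.90), SPRED3 (-0.64 and 0.89), DUSP4 (1.36 and -1.68), ETV4 (-0.81 and 0.75) and the epithelial keratins KRT7 (1.90 and -6.26) and KRT19 (0.62 and -7.65), given as HeyC2 and SKOV3. With 1 library per condition, none of these differences between lines was tested.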

How the results depend on the processing

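The labels carry no replicate numbers, each condition has 1 library, and none could be left out within a line. A fit over both lines with the line as a block would leave 1 residual degree of freedom and was not run. Of 154 values of single receptors under the alternatives, 143 moved by less than the SD of the 500 genes nearest in expression, 11 moved by more and 0 of those past 1.5-fold changed sign. In HeyC2, the count of higher receptors (2) was 0 at a threshold of 2-fold and 6 with the deposited values and no median subtracted, and the count of lower ones (0) was 2 at 1.2-fold and 1 with the deposited values minus their median. In SKOV3, the count of higher receptors (1) was 0 at a mean of at least 5 FPKM, 3 under TPM, 0 at 2-fold, 2 at 1.2-fold and 3 as deposited, and the count of lower ones (4) was 2 at 2-fold and 2 as deposited. Between the controls, the count higher in HeyC2 (2) was 1 under TPM, where EPHA2 (0.50) was lost, and 1 at 2-fold. The deposited scale multiplies TET1 values by the GAPDH constant (1.69 in HeyC2 and 0.43 in SKOV3, log2) before the pseudocount is added. Low values thus shift less than high ones, and PDGFRB in HeyC2 moved from -0.32 to -0.77 with the median subtracted. A stricter or looser threshold counts fewer or more by construction. FGFR2, at 2.32 and 6.15 FPKM in SKOV3, was under the mean of 5 FPKM and so left the count at that filter. Under TPM no median was subtracted, and the all-gene median was 0.25 in SKOV3 and -0.31 between the controls. For the remaining changes the cause was not tested. Counts over lists of this length change by a receptor at a time, and FPKM under 1 rest on few fragments.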
